A study of Arabidopsis thaliana with 42 samples.

Results

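WRKY18 (AT4G31800), WRKY22 (AT4G01250), WRKY29 (AT4G23550), WRKY33 (AT2G38470), WRKY40 (AT1G80840), WRKY46 (AT2G46400), WRKY53 (AT4G23810), WRKY54 (AT2G40750), WRKY60 (AT2G25000) and WRKY70 (AT3G56400) are WRKY transcription factors with known roles in plant defence. These 10 genes, of 27667 loci counted, were picked by locus identifier, with earlier results of these data known. RNA was sequenced from whole Arabidopsis thaliana seedlings aged 5 days, in 42 libraries that formed 14 groups of 3 replicates. The line labelled rh6812 is named for 3 DEAD-box helicases of RNA (RH6, RH8 and RH12), plant counterparts of DHH1 in yeast and DDX6 in animals. It was set against wild-type Col-0, and its own ecotype label is also Col-0. The labels give neither the alleles of the line nor whether seedlings were pooled. In the poly(A)+ set, which had no agent, polysome-bound RNA and total RNA were each counted in 3 libraries labelled rh6812 and 3 Col-0 libraries. In the rRNA-depleted set, seedlings labelled rh6812 and Col-0 seedlings were treated with cordycepin, which ends growing RNA chains and so blocks transcription, and were taken at 0, 15, 30, 60 and 120 min. The 0 min libraries also carry cordycepin as their agent in the labels. The series title asks whether these helicases keep the mRNAs of stress responses short-lived.

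WRKY proteins are plant transcription factors that bind a short promoter element, the W-box, and their genes carry W-boxes themselves often enough that the family is known for regulating its own members. In Arabidopsis, recognition of bacterial flagellin by a surface receptor starts a protein kinase cascade that acts through WRKY22, WRKY29 and WRKY33, while salicylic acid raises transcripts of the group III factors WRKY46, WRKY53, WRKY54 and WRKY70. WRKY18, WRKY40 and WRKY60 form subgroup IIa, pair with one another and are known as partly redundant repressors of defence. Many WRKY transcripts appear within minutes of a stimulus and are lost quickly afterwards.

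The 250 bases upstream of the annotated start of each gene were searched for the W-box, as TTGACC or TTGACT on either strand, because it is the element that WRKY proteins bind. WRKY29, WRKY33 and WRKY53 held 2 W-boxes each, and the windows of the other 7 genes held none of these letters. At least 1 W-box stood in 28.4% of 27443 upstream windows of the same length in the genome, and at least 2 in 6.18%. The windows below are those with W-boxes, followed by those of WRKY18, WRKY46 and WRKY70, the 3 genes on which the genotype results turn most. They come from the RefSeq TAIR10.1 assembly, read 5′ to 3′ on the strand of the gene, and capitals mark each W-box in its forward or reverse form. No other annotated gene overlapped these windows. They lie at chr4:12291382-12291631 (+ strand), chr2:16107985-16108234 (+ strand), chr4:12393983-12394232 (- strand), chr4:15382527-15382776 (+ strand), chr2:19044956-19045205 (- strand) and chr3:20910624-20910873 (- strand), in the order shown.
WRKY29: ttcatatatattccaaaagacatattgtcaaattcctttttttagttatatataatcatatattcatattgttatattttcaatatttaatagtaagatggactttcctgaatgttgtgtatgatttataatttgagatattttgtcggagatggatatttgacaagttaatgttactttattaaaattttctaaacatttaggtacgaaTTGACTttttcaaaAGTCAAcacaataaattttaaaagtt
WRKY33: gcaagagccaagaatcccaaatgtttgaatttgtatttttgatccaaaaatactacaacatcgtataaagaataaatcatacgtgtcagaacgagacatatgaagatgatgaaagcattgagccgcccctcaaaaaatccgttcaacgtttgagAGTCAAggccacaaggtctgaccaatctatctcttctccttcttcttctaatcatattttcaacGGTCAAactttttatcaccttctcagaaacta
WRKY53: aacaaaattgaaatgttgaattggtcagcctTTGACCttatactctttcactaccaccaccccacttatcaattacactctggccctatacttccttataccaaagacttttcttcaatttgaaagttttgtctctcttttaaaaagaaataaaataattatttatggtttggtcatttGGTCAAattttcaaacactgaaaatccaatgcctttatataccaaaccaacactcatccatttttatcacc
WRKY18: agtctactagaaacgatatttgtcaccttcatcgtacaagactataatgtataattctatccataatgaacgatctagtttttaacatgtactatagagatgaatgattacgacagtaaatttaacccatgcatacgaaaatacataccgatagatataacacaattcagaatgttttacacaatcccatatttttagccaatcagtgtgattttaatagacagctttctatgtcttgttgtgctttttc
WRKY46: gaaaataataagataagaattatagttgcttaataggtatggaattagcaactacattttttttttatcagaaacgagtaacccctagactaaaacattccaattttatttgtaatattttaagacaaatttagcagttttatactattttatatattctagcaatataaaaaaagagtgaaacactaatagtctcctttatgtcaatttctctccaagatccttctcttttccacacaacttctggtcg
WRKY70: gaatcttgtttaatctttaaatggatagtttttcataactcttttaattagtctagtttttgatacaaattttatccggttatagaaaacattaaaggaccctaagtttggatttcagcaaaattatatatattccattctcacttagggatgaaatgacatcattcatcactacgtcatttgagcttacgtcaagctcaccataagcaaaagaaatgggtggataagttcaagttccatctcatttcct
In WRKY29 the first base of the 2 elements lay 40 and 26 bases upstream of the start, in WRKY33 it lay 96 and 32 bases upstream, and in WRKY53 it lay 219 and 71 bases upstream. The rapid stress response element CGCGTT and the G-box CACGTG, both searched on either strand, were in none of the 10 windows, and in 2.59% and 6.49% of the 27443 windows. A match of letters is a description of the sequence and says nothing of binding.

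The 12 poly(A)+ libraries held 4611462 to 30654342 counts each, and the 30 rRNA-depleted libraries 11463206 to 22251739. The labels do not say whether replicates were grown separately, so the p-values rest on a spread between libraries that may be technical. RH8 was low in the libraries labelled rh6812, at 2.84 against 32.7 CPM (counts scaled to the library total) in total RNA, and RH12 was at 24.4 against 38.5 CPM. RH6 went against the label, at 132 against 54.5 CPM in total RNA and 378 against 35.3 CPM at 0 min, so each direction below is that of libraries labelled rh6812. The 5 markers of green tissue summed to at least 12777 CPM in every library and the 6 root markers to at least 24.3 CPM, so transcripts of both organs were detected. The 5 seed markers summed to 0 to 70.2 CPM and varied between replicates, as from 1.98 to 69.7 CPM at 15 min labelled rh6812. In some rRNA-depleted libraries they exceeded the root sum, as at 70.2 against 43.0 CPM in replicate 1 labelled rh6812 at 60 min. Senescence markers moved with genotype in poly(A)+ RNA, where SAG13 averaged 45.4 CPM in total RNA labelled rh6812 and 0.141 CPM in Col-0 total RNA, while SAG12 had at most 1 count in any of these libraries. The senescence sum was also apart by genotype at all 5 cordycepin times, at low levels of 0.340 to 2.09 CPM in the libraries labelled rh6812 and 0 to 0.0584 CPM in Col-0. The part of these shifts in the WRKY results was not tested.

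In poly(A)+ RNA most of the 10 WRKY transcripts differed by genotype, in both directions. The group III transcripts WRKY46 and WRKY70 were higher in the libraries labelled rh6812 by the widest margins among the 10, WRKY18, WRKY33 and WRKY53 were higher by smaller ones, and the flagellin-responsive WRKY22 and WRKY29 were lower. In polysome RNA 7 of the 10 rose and 2 fell, beside 30.2% and 33.3% of the 20949 genes tested (63.5% in either direction). In total RNA 5 rose and 2 fell, beside 32.2% and 32.4% of all genes (64.6% in either direction). Since most genes were called in both populations, a call on its own sets no WRKY gene apart. The median log2 change of the 10 was 1.12 in polysome RNA and 0.78 in total RNA, beside -0.05 and -0.03 for all genes. Scaled by library size alone, the median of all genes was -0.14 in polysome RNA and -0.18 in total RNA, and the total RNA calls were 26.2% higher and 40.3% lower. All 10 passed the filter on low counts in both sets. Tests are edgeR's quasi-likelihood test with Benjamini-Hochberg adjustment over all genes tested, called at an adjusted p under 0.05, and errors of log2 changes are standard errors (SE). These are bulk samples, so fewer cells of a type and less RNA per cell cannot be told apart.

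WRKY22, which acts below the flagellin receptor, had 5.89, 8.27 and 6.12 CPM in polysome RNA labelled rh6812, against 25.4, 25.0 and 27.1 CPM in Col-0 polysome RNA. In total RNA it had 3.93, 4.29 and 5.73 CPM in the libraries labelled rh6812, against 19.2, 17.5 and 18.1 CPM in Col-0. Each of the 6 libraries labelled rh6812 was thus below each of the 6 Col-0 libraries. The log2 change was -2.02 ± 0.14, adjusted p = 2.16e-13 in polysome RNA and -1.95 ± 0.13, adjusted p = 9.16e-14 in total RNA. WRKY29, placed in the same cascade, fell by 0.99 ± 0.14 (adjusted p = 4.9e-07) in polysome RNA and by 0.59 ± 0.14 (adjusted p = 0.000559) in total RNA on the log2 scale. Its means were 12.7 ± 3.04 CPM labelled rh6812 and 25.2 ± 3.38 CPM in Col-0 polysome RNA (SD, n = 3 each). WRKY33, a kinase target needed for synthesis of the antifungal compound camalexin, moved the other way. It had 28.7, 35.5 and 34.5 CPM in polysome RNA labelled rh6812, against 11.1, 9.65 and 12.9 CPM in Col-0, with no overlap (1.51 ± 0.13, adjusted p = 1.72e-11). Its total RNA means were 23.9 ± 3.56 CPM labelled rh6812 and 11.6 ± 1.25 CPM in Col-0 (log2 change 1.06 ± 0.12, adjusted p = 8.39e-09). WRKY29 overlaps a gene on the opposite strand in TAIR10.1, and WRKY33 overlaps AT2G08965 and AT2G38480 there. The strand setting of the counts is unknown, which leaves the values of WRKY29 and WRKY33 uncertain. WRKY40 and WRKY53 also overlap a gene on the opposite strand, so the same holds for them.

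Within subgroup IIa WRKY18 was called higher in both populations, WRKY40 in polysome RNA alone and WRKY60 in neither, and differences between these genes were not tested. WRKY18 had 42.3, 50.6 and 49.0 CPM in polysome RNA labelled rh6812, against 18.7, 16.8 and 18.5 CPM in Col-0. In total RNA it had 21.4, 23.5 and 17.9 CPM labelled rh6812, against 6.75, 8.25 and 7.84 CPM in Col-0. The genotypes did not overlap in either RNA population, and the log2 changes were 1.37 ± 0.11, adjusted p = 6.52e-12 in polysome RNA and 1.46 ± 0.12, adjusted p = 5.59e-12 in total RNA. WRKY40, which also represses genes of abscisic acid signalling, had 10.5, 5.35 and 9.96 CPM in polysome RNA labelled rh6812, against 5.47, 8.47 and 6.46 CPM in Col-0, and the groups overlapped. Its polysome change of 0.49 ± 0.21, adjusted p = 0.043 was called by edgeR. That call was lost with library size alone, with DESeq2, and without replicate 1 or 3 of either polysome group (adjusted p = 0.061 to 0.26 over these settings). In total RNA WRKY40 was not called (0.21 ± 0.21, adjusted p = 0.376). WRKY60 had overlapping groups in both populations and was called in neither, with a 95% interval of the log2 change of -0.15 to 0.42 in polysome RNA and -0.05 to 0.52 in total RNA. Without replicate 2 of Col-0 total RNA, WRKY60 was called higher in total RNA (0.35, adjusted p = 0.047).

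**Figure D1:**
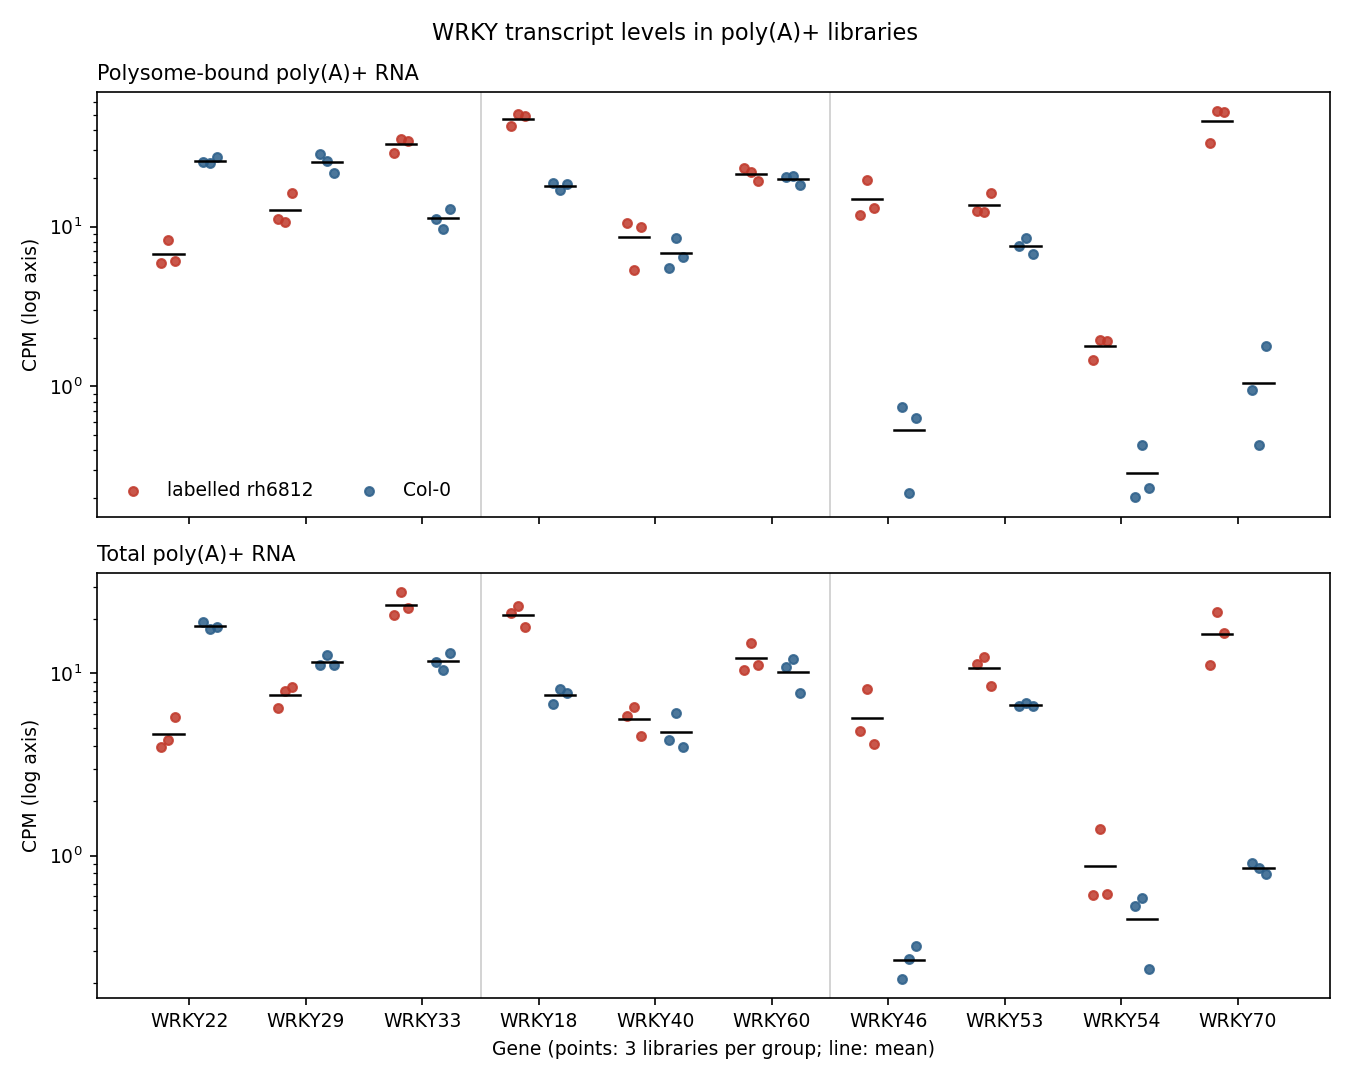
CPM on a log axis of the 10 WRKY transcripts in polysome-bound (upper) and total (lower) poly(A)+ RNA, with the 3 libraries labelled rh6812 left of the 3 Col-0 libraries and a line at each mean. WRKY46 and WRKY70 in the libraries labelled rh6812 sit an order of magnitude above Col-0, and WRKY22 sits below it.

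The largest log2 changes among the 10 in poly(A)+ RNA were those of WRKY46 and WRKY70, both of group III. WRKY46, a salicylic acid responsive factor that adds to basal resistance, had 11.8, 19.4 and 13.1 CPM in polysome RNA labelled rh6812, against 0.743, 0.214 and 0.634 CPM in Col-0. In total RNA it had 4.83, 8.18 and 4.10 CPM labelled rh6812, against 0.211, 0.271 and 0.317 CPM in Col-0. No libraries overlapped, and the Col-0 values rest on few reads, 2 to 22 counts in polysome RNA and 4 to 7 counts in total RNA. The fitted fold was 22.9 in polysome RNA (log2 4.51 ± 0.31, adjusted p = 2.28e-12) and 22.0 in total RNA (log2 4.46 ± 0.37, adjusted p = 5.29e-11). WRKY70, a node between salicylic acid and jasmonate responses, had 33.0, 52.5 and 52.3 CPM in polysome RNA labelled rh6812, against 0.945, 0.429 and 1.79 CPM in Col-0. In total RNA it had 11.1, 21.6 and 16.6 CPM labelled rh6812, against 0.915, 0.853 and 0.792 CPM in Col-0. Each library labelled rh6812 was again above each Col-0 library, with log2 changes of 5.31 ± 0.37, adjusted p = 2.11e-07 in polysome RNA and 4.26 ± 0.38, adjusted p = 1.9e-06 in total RNA.

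WRKY53, known as a regulator of leaf senescence, rose by 0.87 ± 0.16, adjusted p = 1.83e-05 in polysome RNA and by 0.67 ± 0.15, adjusted p = 0.000222 in total RNA. Its polysome means were 13.6 ± 2.12 CPM labelled rh6812 and 7.56 ± 0.890 CPM in Col-0 (SD, n = 3 each), without overlap. WRKY54, the close partner of WRKY70 in restraining senescence, was the lowest of the 10 in CPM per kilobase in both groups labelled rh6812 and in Col-0 polysome RNA. It had 1.47, 1.94 and 1.92 CPM in polysome RNA labelled rh6812, against 0.203, 0.429 and 0.231 CPM in Col-0, a log2 change of 2.71 ± 0.50, adjusted p = 1.88e-05. In total RNA it had 0.604, 1.40 and 0.617 CPM labelled rh6812, against 0.528, 0.581 and 0.238 CPM in Col-0. The total RNA groups lay side by side without overlap, and the change missed the threshold (0.89 ± 0.42, adjusted p = 0.062). It passed without replicate 3 of the total RNA labelled rh6812 (1.13, adjusted p = 0.034). In both RNA populations 6 of the 10 genes had all libraries labelled rh6812 above all Col-0 libraries and 2 had them below, beside 31.0% and 35.1% of genes in polysome RNA and 33.8% and 34.5% in total RNA. All 5 clock genes checked for time of day also differed in total RNA, LHY and CCA1 being higher in the libraries labelled rh6812 and PRR5, TOC1 and GI lower. LHY averaged 46.9 CPM labelled rh6812 and 3.84 CPM in Col-0 there, and 37.6 against 73.7 CPM at 0 min of cordycepin. Among 6 genes of touch and wounding 5 were higher in total RNA labelled rh6812, their sum being 319 to 408 CPM labelled rh6812 and 211 to 226 CPM in Col-0. In polysome RNA that sum was 575 to 678 CPM labelled rh6812 and 407 to 457 CPM in Col-0, and the green tissue sum of polysome RNA was also higher without overlap. The part of tissue makeup, harvest time and handling in the WRKY differences was not tested.

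**Figure D2:**
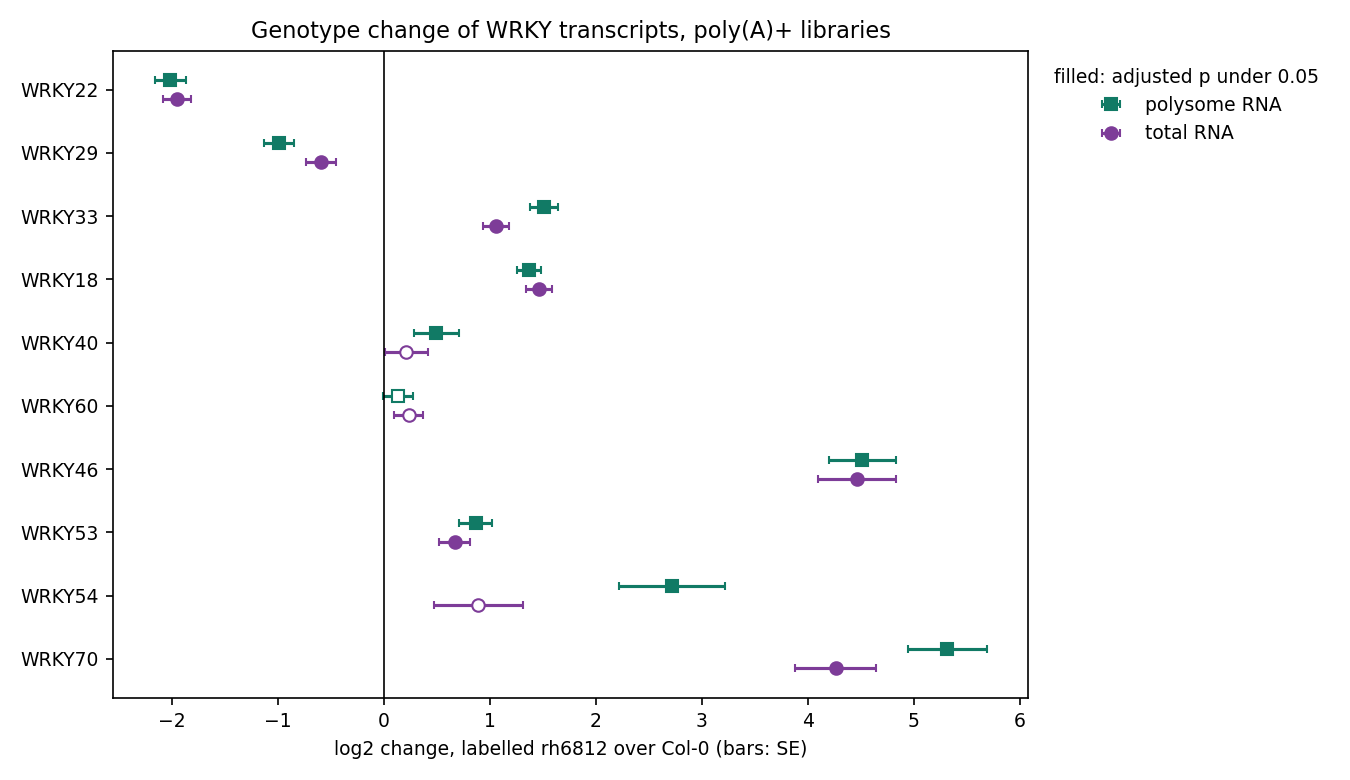
Log2 change with its SE for each WRKY gene between libraries labelled rh6812 and Col-0, in polysome RNA (squares) and total RNA (circles), filled where the edgeR adjusted p is under 0.05. WRKY22 and WRKY29 lie left of 0, WRKY60 in both populations and WRKY40 and WRKY54 in total RNA have open symbols, and WRKY46 and WRKY70 lie right of 4.

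Polysome RNA was set against total RNA within each genotype to ask how far each transcript is bound by ribosomes. Among the libraries labelled rh6812 8 of the 10 were higher in polysome than in total RNA and none was lower by edgeR, beside 26.0% and 27.2% of all genes (53.2% in either direction). By DESeq2 the count was also 8, and all 10 had an unadjusted p under 0.05. In Col-0 5 of the 10 were higher and none was lower by edgeR, beside 30.7% and 27.0% of all genes (57.7% in either direction). DESeq2 also called 5, and 6 had an unadjusted p under 0.05. WRKY18 had the smallest p in both genotypes, at 1.16 ± 0.11, adjusted p = 4.25e-10 for the libraries labelled rh6812 and 1.26 ± 0.12, adjusted p = 4.16e-10 for Col-0. WRKY29 and WRKY60 followed in Col-0, at 1.12 ± 0.13 and 0.92 ± 0.14. WRKY70 had a ratio of 1.42 ± 0.26, adjusted p = 0.000846 in the libraries labelled rh6812, and in Col-0 it was not called (0.37 ± 0.59, adjusted p = 0.619). The Col-0 call of WRKY46 (1.24 ± 0.54, adjusted p rounding to 0.05) was lost with the size factors of DESeq2, with library size alone, and without replicate 1 or 3 of Col-0 polysome RNA or any 1 replicate of Col-0 total RNA (adjusted p = 0.058 to 0.3).

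Marker genes moved with the same comparison, root markers among them. All 6 root markers were lower in polysome than in total RNA in both genotypes, their sum being 26.7 to 31.2 CPM (polysome) and 143 to 175 CPM (total) for the libraries labelled rh6812, and 24.3 to 28.3 CPM (polysome) and 102 to 156 CPM (total) for Col-0. The 5 green tissue markers summed to 49384 to 57011 CPM (polysome) and 33052 to 37133 CPM (total) for the libraries labelled rh6812, and 38147 to 40622 CPM (polysome) and 26161 to 37502 CPM (total) for Col-0. The 6 touch and wounding genes summed to 575 to 678 CPM (polysome) and 319 to 408 CPM (total) for the libraries labelled rh6812, and 407 to 457 CPM (polysome) and 211 to 226 CPM (total) for Col-0. Green tissue and touch sums were thus higher in polysome than in total RNA in both genotypes, without overlap, and the sums of the 5 clock genes were lower without overlap. The part of these markers in the WRKY ratios was not tested. With library size alone the median of all genes shifted to -0.17 in the libraries labelled rh6812 and -0.19 in Col-0, and the calls were 16.9% higher and 35.1% lower in the libraries labelled rh6812 and 18.3% higher and 38.4% lower in Col-0. Under that scaling WRKY22 and WRKY33 were no longer called in the libraries labelled rh6812 and WRKY22 and WRKY46 no longer in Col-0, while no WRKY ratio that was called changed sign. The WRKY22 call in the libraries labelled rh6812 was also lost in a fit of the 2 compared groups alone (0.44, adjusted p = 0.061) and without polysome replicate 2 or total replicate 1 or 2 (adjusted p = 0.077 to 0.1), and the WRKY40 call without polysome replicate 1 (0.57, adjusted p = 0.08). WRKY53 passed there without polysome replicate 1 or 2 or total replicate 1 or 2 (0.41 to 0.49, adjusted p = 0.019 to 0.043), and WRKY54 without total replicate 2 (1.46, adjusted p = 0.0092). In Col-0 WRKY40 passed without polysome replicate 1 (0.59, adjusted p = 0.032) or total replicate 2 (0.64, adjusted p = 0.015).

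The genotype difference of the polysome to total ratio, here called ribosome association, was called for none of the 10 genes by edgeR, beside 3.30% of all genes called higher and 6.45% lower (9.76% in either direction). Scaled by library size alone, the split was 3.79% and 4.79%. DESeq2 called none either, and 2 had an unadjusted p under 0.05. They were WRKY54 (1.82 ± 0.68, adjusted p = 0.0814) and WRKY33 (0.45 ± 0.18, adjusted p = 0.117). WRKY54 passed without replicate 2 of the total RNA labelled rh6812 (2.38, adjusted p = 0.026), and WRKY33 passed without that library (0.57, adjusted p = 0.039) or without replicate 1 of the polysome RNA labelled rh6812 (0.64, adjusted p = 0.031). With replicate number added to the edgeR fit as a block, WRKY70 was called higher (1.06, adjusted p = 0.036). For WRKY18 the 95% interval of the difference was -0.43 to 0.24 and for WRKY46 it was -1.19 to 1.30, the wider interval belonging to the gene with few Col-0 reads.

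**Figure D3:**
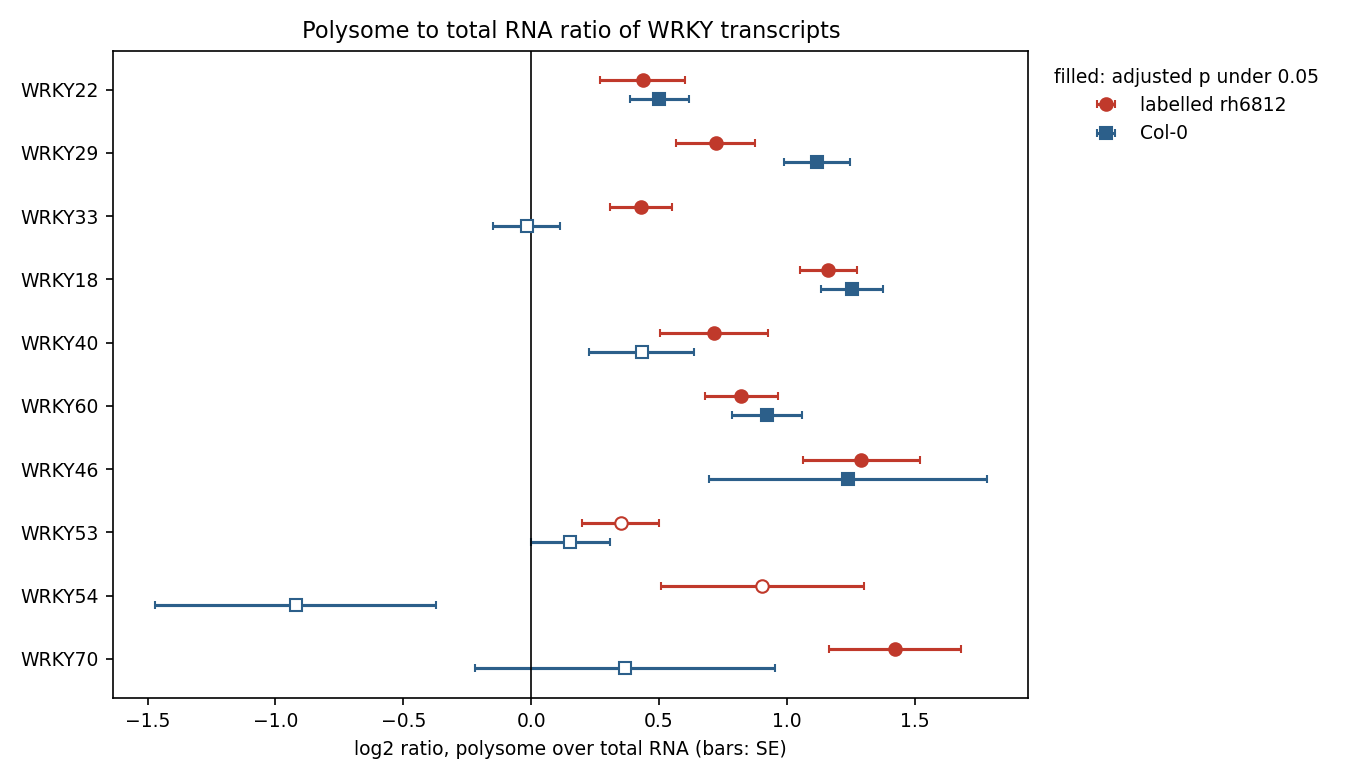
Log2 ratio of polysome over total RNA with its SE for each WRKY gene, libraries labelled rh6812 (circles, above) and Col-0 (squares, below), filled where the edgeR adjusted p is under 0.05. Ratios in the libraries labelled rh6812 are all above 0, and WRKY33 and WRKY54 have Col-0 ratios at or below 0 that are not called.

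The cordycepin series began from other levels. At 0 min 5 of the 10 WRKY genes were higher in the libraries labelled rh6812 and 1 was lower, beside 24.4% and 24.0% of the 21486 genes tested (48.4% in either direction). WRKY46, WRKY53, WRKY54, WRKY60 and WRKY70 rose and WRKY22 fell, while WRKY18 and WRKY33, higher in poly(A)+ RNA, were not called. By 120 min 7 were higher and none was lower by edgeR, beside 29.8% and 26.8% of all genes (56.6% in either direction), and DESeq2 also called 7. These were the 5 that rose at 0 min with WRKY18 and WRKY40. The 2 sets differ in RNA selection and agent, so no test was run between them. With library size alone the median of all genes was 0.20 at 0 min and 0.42 at 120 min, the calls were 33.5% higher and 12% lower at 0 min and 47.0% higher and 11.6% lower at 120 min, and WRKY29 and WRKY33 were also called higher at 120 min.

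WRKY22 had 12.1, 9.82 and 11.5 CPM at 0 min in the libraries labelled rh6812, against 24.6, 17.5 and 27.0 CPM in Col-0, without overlap (log2 change -1.05 ± 0.27, adjusted p = 0.00263). At 120 min it had 20.9, 26.6 and 23.1 CPM in the libraries labelled rh6812, against 20.4, 18.5 and 23.5 CPM in Col-0, and the groups overlapped (0.17 ± 0.26, adjusted p = 0.601). WRKY22 was the one gene of the 10 called lower at 0 min, and it was not called at 120 min. WRKY29 was not called at either time, and its 95% interval was -0.25 to 1.03 at 0 min and -0.14 to 1.25 at 120 min. In a fit of the 2 groups at 120 min alone, WRKY29 (0.50, adjusted p = 0.018) and WRKY33 (0.45, adjusted p = 0.021) were both called higher. The WRKY29 libraries labelled rh6812 were all above Col-0 at 15, 30, 60 and 120 min, whereas in poly(A)+ RNA they were all below it. WRKY33 averaged 68.6 ± 15.2 CPM in the libraries labelled rh6812 and 48.3 ± 3.71 CPM in Col-0 at 120 min (SD, n = 3 each). The groups did not overlap and the change missed the threshold (0.50 ± 0.24, adjusted p = 0.0825). At 0 min WRKY33 passed without replicate 3 of Col-0 (0.64, adjusted p = 0.034), WRKY29 passed without replicate 1 of Col-0 (0.82, adjusted p = 0.041), and at 120 min WRKY33 passed without replicate 3 of the libraries labelled rh6812 (0.66, adjusted p = 0.039).

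WRKY18 had 118, 111 and 190.1 CPM at 0 min in the libraries labelled rh6812, against 141, 34.5 and 207 CPM in Col-0. The 3 Col-0 libraries spread widely and enclosed all 3 libraries labelled rh6812, and no difference was called at the start (0.13 ± 0.38, adjusted p = 0.795). At 120 min WRKY18 had 93.7, 114 and 108 CPM in the libraries labelled rh6812, against 25.8, 20.7 and 24.6 CPM in Col-0, with a wide gap between the groups and a log2 change of 2.15 ± 0.40, adjusted p = 0.000105. WRKY40 followed, at 54.4, 72.1 and 38.2 CPM in the libraries labelled rh6812 at 120 min, against 18.4, 16.8 and 24.9 CPM in Col-0 (1.44 ± 0.34, adjusted p = 0.00105). Its groups did not overlap at 120 min and did at 0 min. WRKY60, which was not called in poly(A)+ RNA, was higher in the libraries labelled rh6812 at 0 min (1.40 ± 0.38, adjusted p = 0.00353) and at 120 min (1.92 ± 0.43, adjusted p = 0.000512). Its levels were low in this set, at 3.92 ± 0.989 CPM labelled rh6812 against 1.04 ± 0.218 CPM for Col-0 at 120 min (SD, n = 3 each), the Col-0 libraries holding 13 to 22 counts. The 6 touch and wounding genes were all higher in the libraries labelled rh6812 at 120 min too, their sum being 1168 to 1408 CPM in the libraries labelled rh6812 and 437 to 534 CPM in Col-0, and their part in the WRKY differences was not tested.

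**Figure D4:**
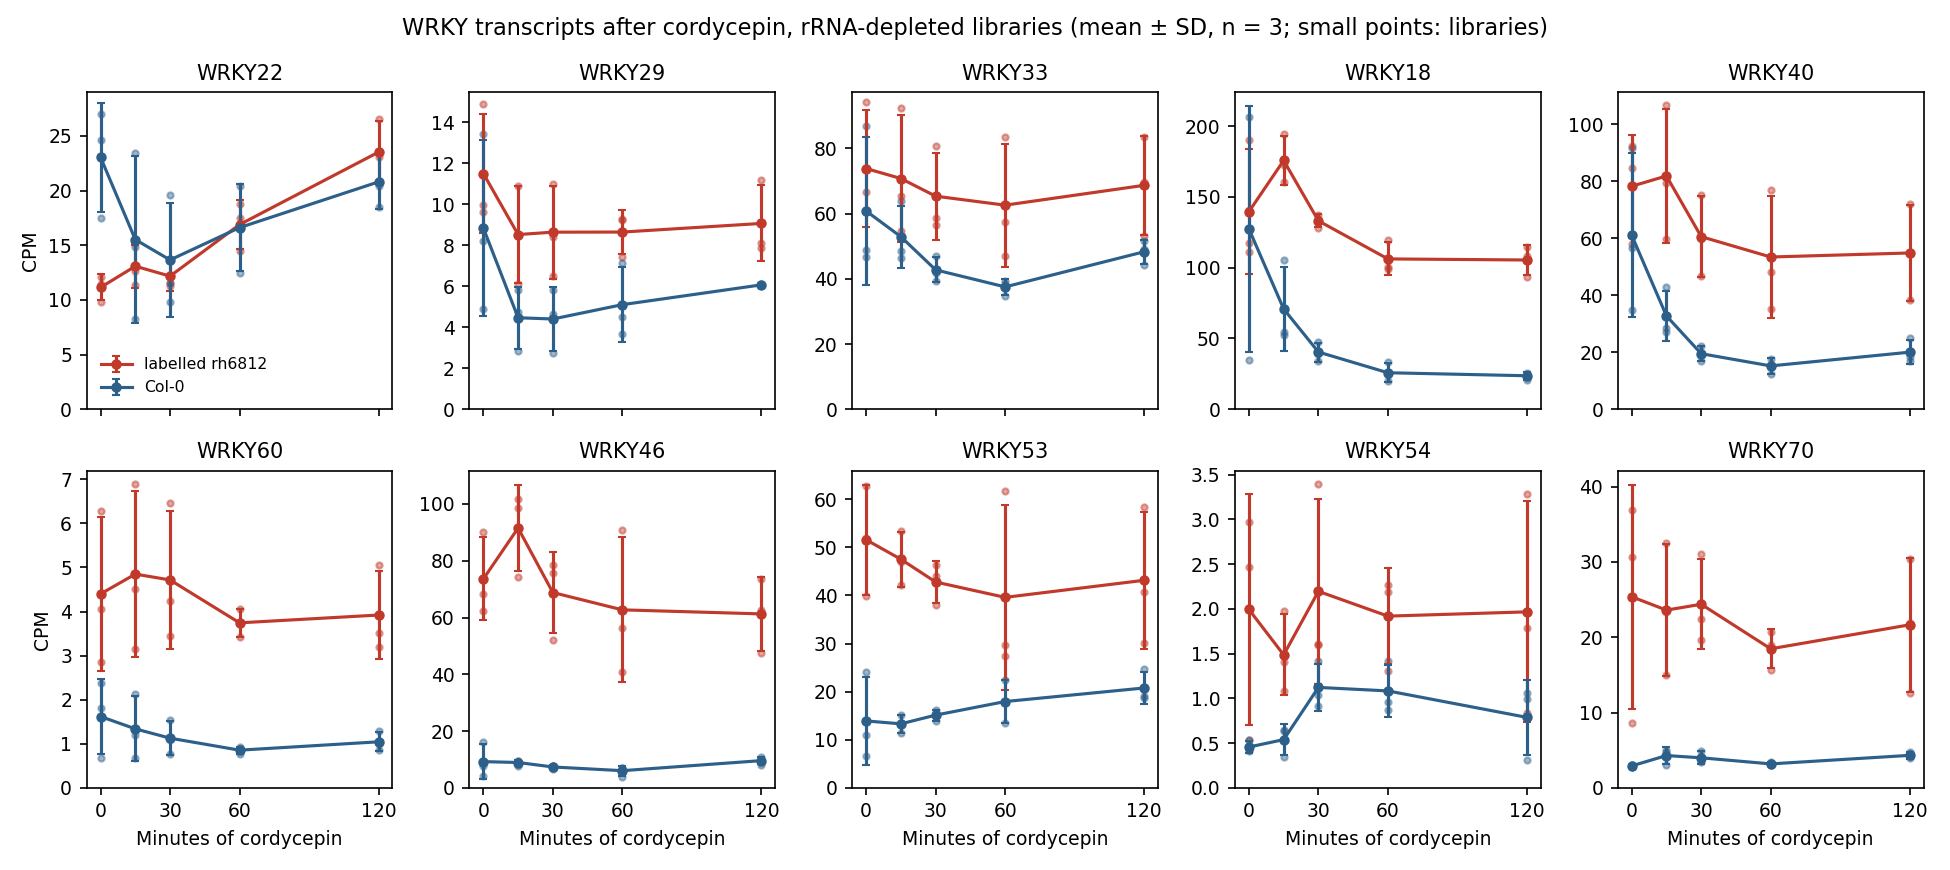
CPM of each WRKY gene against minutes of cordycepin, libraries labelled rh6812 in red and Col-0 in blue, with mean ± SD of 3 libraries and each library as a small point. By 120 min WRKY18 is at 75.5% of its 0 min mean in the libraries labelled rh6812 and at 18.6% in Col-0, WRKY40 is at 70.1% and 32.8%, and WRKY46 and WRKY70 stay above Col-0 at each time.

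WRKY46 had 62.3, 68.4 and 90.1 CPM at 0 min in the libraries labelled rh6812, against 7.53, 4.19 and 16.0 CPM in Col-0. At 120 min it had 62.6, 73.7 and 47.5 CPM in the libraries labelled rh6812, against 10.7, 8.15 and 9.87 CPM in Col-0. Its groups were apart at all 5 times. The log2 change was 2.98 ± 0.35, adjusted p = 4.55e-07 at 0 min and 2.67 ± 0.35, adjusted p = 1.36e-06 at 120 min. Ranked over the 10 groups of the set, the 5 groups labelled rh6812 came first with means of 61.3 to 91.5 CPM, and the 5 Col-0 groups followed with 6.04 to 9.59 CPM. Neighbours in that order overlapped except at the step between the genotypes. WRKY70 had means of 18.5 to 25.4 CPM in the 5 groups labelled rh6812 and 2.91 to 4.31 CPM in the 5 Col-0 groups, and neighbours overlapped except at the step between the genotypes and between Col-0 at 30 and 60 min. At 0 min it had 8.55, 36.9 and 30.7 CPM in the libraries labelled rh6812, replicate 1 being well below the other two, against 2.79, 3.09 and 2.86 CPM in Col-0. Its change was 3.12 ± 0.42, adjusted p = 3.44e-06 at 0 min and 2.35 ± 0.41, adjusted p = 5.56e-05 at 120 min.

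WRKY53 was higher in the libraries labelled rh6812 at 0 min, at 52.0, 39.9 and 62.8 CPM against 11.0, 6.59 and 24.1 CPM in Col-0 (1.88 ± 0.35, adjusted p = 0.000147). At 120 min it averaged 43.1 ± 14.3 CPM labelled rh6812 and 20.8 ± 3.38 CPM in Col-0 (1.04 ± 0.35, adjusted p = 0.0139), a call that was lost without replicate 2 of the libraries labelled rh6812 (0.77, adjusted p = 0.086). WRKY54 had 0.535, 2.47 and 2.98 CPM at 0 min in the libraries labelled rh6812, against 0.413, 0.419 and 0.536 CPM in Col-0. These Col-0 libraries held 8 to 12 counts each, and those at 120 min 5 to 17. Replicate 1 of the libraries labelled rh6812 held the value nearest to Col-0, and the ranges met, with a fitted 4.28-fold difference (adjusted p = 0.00295). Its call at 120 min (1.42 ± 0.53, adjusted p = 0.0243) was lost without replicate 1 of Col-0 (1.04, adjusted p = 0.12) or replicate 3 of the libraries labelled rh6812 (0.82, adjusted p = 0.25). The number of WRKY genes with all libraries labelled rh6812 above all Col-0 libraries was 4 at 0 min, 8 at 15 min, 9 at 30 min, 8 at 60 min and 8 at 120 min. The share of all genes in that state was 26.9%, 27.6%, 27.5%, 29.7% and 32.3% at these times. WRKY22 at 0 min was the only one with all of them below, a state held by 27.1% of all genes at 0 min.

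**Figure D5:**
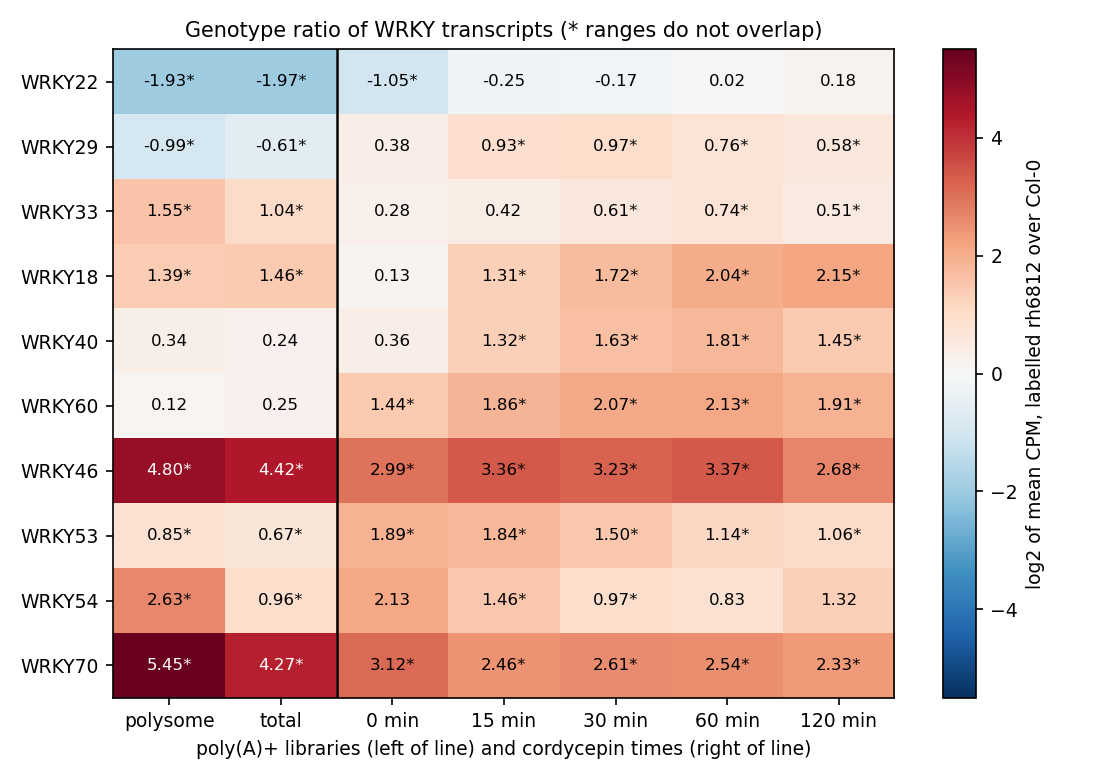
Log2 ratio of mean CPM, libraries labelled rh6812 over Col-0, for each WRKY gene (down the page) in the 2 poly(A)+ populations and at the 5 cordycepin times, with a star where the libraries do not overlap. WRKY46 and WRKY70 are red in every column, WRKY18 and WRKY40 turn from pale at 0 min to red by 120 min, and WRKY22 turns from blue to pale.

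If cordycepin blocked synthesis, which was not tested here, the change within each genotype over time bears on how fast a transcript is lost. Scaling sets the typical transcript near no change, so these values are relative to it and are not half-lives. In the libraries labelled rh6812 none of the 10 genes was called between 0 and 30 min by edgeR, beside 1.72% of all genes higher and 1.23% lower (2.95% in either direction), none by DESeq2, and none had an unadjusted p under 0.05. In Col-0 WRKY18 and WRKY40 fell, 2 of 10 genes beside 5.90% of all genes higher and 5.24% lower (11.1% in either direction). WRKY18 went to 95.4% of its 0 min mean by 30 min in the libraries labelled rh6812 and to 31.7% in Col-0, and WRKY40 to 77.4% and 31.9%. Scaled by library size alone, the Col-0 calls were 4.26% higher and 7.81% lower and the median of all genes was -0.14.

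WRKY18 had 128, 137 and 134 CPM at 30 min in the libraries labelled rh6812, against 34.5, 39.2 and 47.7 CPM in Col-0, and its Col-0 change from 0 min was -1.66 ± 0.39, adjusted p = 0.00574. WRKY40 had 75.1, 59.9 and 46.8 CPM at 30 min in the libraries labelled rh6812, against 17.1, 19.2 and 22.2 CPM in Col-0, where it had 56.6, 34.9 and 91.8 CPM at 0 min (-1.65 ± 0.34, adjusted p = 0.00171). The lowest Col-0 library of WRKY40 at 0 min was above its highest at 30 min, whereas for WRKY18 replicate 2 at 0 min lay within the 30 min range. DESeq2 called 4 of the 10 lower in Col-0, WRKY22 and WRKY29 being the others (adjusted p = 0.045 and 0.023). By edgeR WRKY22 passed without Col-0 replicate 2 at 0 min or replicate 3 at 30 min (-1.11 to -0.93, adjusted p = 0.012 to 0.042), and WRKY29 without replicate 3 at either time (-1.32 to -1.25, adjusted p = 0.0086 to 0.045). Without replicate 3 of Col-0 at 0 min the WRKY18 call was lost (-1.13, adjusted p = 0.06), and in a fit of the 2 compared groups alone both calls were lost (WRKY18 adjusted p = 0.23, WRKY40 adjusted p = 0.056).

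The 0 min libraries differed among themselves in a set of 6 genes of touch and wounding. In replicates 1, 2 and 3 they summed to 977, 819 and 1277 CPM in the libraries labelled rh6812, against 841, 450 and 965 CPM in Col-0, the same order as WRKY18 and WRKY40 in Col-0. Their part in the WRKY values was not tested. The genotype difference of the change to 30 min was called for none of the 10 by edgeR, beside 0.112% of all genes higher and 0.163% lower (0.275% in either direction), and for none by DESeq2. WRKY18 (1.59 ± 0.54, adjusted p = 0.369), WRKY40 (1.28 ± 0.47, adjusted p = 0.442) and WRKY22 (0.89 ± 0.38, adjusted p = 0.585), 3 of the 10, had an unadjusted p under 0.05. Without replicate 2 of Col-0 at 0 min the WRKY18 difference passed (2.04, adjusted p = 0.0081).

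Between 30 and 120 min WRKY22 was called higher in the libraries labelled rh6812 (0.94 ± 0.27, adjusted p = 0.0409), 1 of 10 genes beside 2.00% of all genes higher and 3.07% lower (5.07% in either direction). The call was lost without any 1 of the 6 libraries (adjusted p = 0.059 to 0.13), with library size alone (adjusted p = 0.072) and with no filter on low counts (adjusted p = 0.06). In Col-0 edgeR called none, beside 10.7% of all genes higher and 15.5% lower (26.2% in either direction), 1 had an unadjusted p under 0.05, and DESeq2 called 1. Both were WRKY22, which by edgeR passed without Col-0 replicate 3 at 30 min (0.96, adjusted p = 0.016). In a fit of these 2 Col-0 groups alone, WRKY18 (-0.75, adjusted p = 0.0023) was called lower and WRKY53 (0.48, adjusted p = 0.018) higher. The difference between genotypes was called for none by edgeR, beside 2.53% higher and 0.693% lower of all genes (3.23% in either direction), none by DESeq2 and none at an unadjusted p under 0.05. The split of all genes moved with scaling. With library size alone it was 0.447% higher and 5.13% lower in the libraries labelled rh6812, and 2.25% higher and 26.5% lower in Col-0. For the difference it was 2.68% higher and 0.168% lower under that scaling. DESeq2 size factors gave 13.9% higher and 13.2% lower in Col-0 and 1.93% higher and 0.931% lower for the difference.

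A straight line of log2 abundance over all 5 times gave a slope for each genotype. In the libraries labelled rh6812 WRKY22 rose, with a slope per hour of 0.53 ± 0.13, adjusted p = 0.00335, and reached 211% of its 0 min mean at 120 min. It was 1 of 10 genes called, beside 10.1% of all genes rising and 11.6% falling (21.7% in either direction), and with times to 60 min only the call was lost (0.55, adjusted p = 0.31). In Col-0 WRKY22 had a slope per hour of 0.04 ± 0.12, adjusted p = 0.792, and after a dip to 59.3% of its 0 min mean at 30 min it stood at 90.3% at 120 min, a course that a straight line does not follow. The slopes per hour of WRKY18 were -0.31 ± 0.20, adjusted p = 0.285 in the libraries labelled rh6812 and -1.14 ± 0.20, adjusted p = 2.99e-05 in Col-0. Those of WRKY40 were -0.29 ± 0.19, adjusted p = 0.292 in the libraries labelled rh6812 and -0.70 ± 0.19, adjusted p = 0.00294 in Col-0. These 2 genes fell in Col-0, beside 23.4% of all genes rising and 27.3% falling there (50.7% in either direction). The Col-0 slope of WRKY40 was not called without the 0 min libraries (-0.27, adjusted p = 0.27), and that of WRKY53 was called as rising without Col-0 replicate 3 at 0 min (0.50, adjusted p = 0.0024). That of WRKY33 was called as falling with times to 60 min only (-0.69, adjusted p = 0.021). Under library size alone WRKY33 (-0.33, adjusted p = 0.011) and WRKY60 (-0.50, adjusted p = 0.044) were also called as falling in Col-0. With library size alone the medians of all genes were -0.09 in the libraries labelled rh6812 and -0.19 in Col-0, and the calls were 2.36% rising and 19.4% falling in the libraries labelled rh6812 and 6.39% rising and 46.4% falling in Col-0.

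The slope difference between genotypes passed for WRKY18 alone among the 10, with a value per hour of 0.83 ± 0.27, adjusted p = 0.0376 by edgeR, 1 of 10 genes beside 9.29% of all genes higher and 4.56% lower (13.9% in either direction), and DESeq2 also called 1. That split was 14.3% higher and 1.18% lower with library size alone, where WRKY22 passed as well (0.57, adjusted p = 0.025). The call was lost without the 0 min libraries (0.41, adjusted p = 0.23), with times to 60 min only (1.73, adjusted p = 0.12) and with no filter on low counts (0.84, adjusted p = 0.051). It was also lost without replicate 1 or 3 of Col-0 at 0 min, replicate 2 of Col-0 at 120 min, replicate 1 or 2 of the libraries labelled rh6812 at 0 min, or any 1 replicate of them at 120 min (0.59 to 0.86, adjusted p = 0.052 to 0.091). WRKY22 (0.49 ± 0.18) and WRKY53 (-0.45 ± 0.19) had an unadjusted p under 0.05 and missed the threshold. WRKY22 passed without replicate 2 of Col-0 at 15 or 30 min or replicate 3 of Col-0 at 120 min (0.51 to 0.57, adjusted p = 0.023 to 0.049), and WRKY53 passed without replicate 3 of Col-0 at 0 min (-0.62, adjusted p = 0.017). For WRKY46 and WRKY70, which differed most in level, the intervals of the slope difference were -0.66 to 0.20 and -0.75 to 0.25 per hour.

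Levels of the 10 genes were compared with one another as CPM per kilobase of the longest annotated transcript. In polysome RNA labelled rh6812 WRKY70 ranked first at 31.3 ± 7.61 and WRKY54 last at 1.24 ± 0.186 CPM per kilobase. In Col-0 polysome RNA WRKY22 ranked first at 19.5 ± 0.845 and WRKY54 last at 0.201 ± 0.0861 CPM per kilobase, WRKY70 being eighth of the 10 there. At 0 min of cordycepin WRKY18 ranked first in both genotypes, at 80.2 ± 25.2 in the libraries labelled rh6812 and 73.2 ± 50.0 CPM per kilobase in Col-0. WRKY40 came second in both, and WRKY54 last in both.

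Among the 61 other WRKY genes in the names table, 49 passed the filter in the poly(A)+ set and 51 in the rRNA-depleted set. In total RNA 18 of the 49 rose and 16 fell, with a median log2 change of 0.11. The 6 with the smallest p were WRKY45 (2.79 ± 0.17), WRKY49 (-1.85 ± 0.14), WRKY57 (1.72 ± 0.13), WRKY3 (-0.98 ± 0.09), WRKY21 (-0.94 ± 0.10) and WRKY55 (5.12 ± 0.56). WRKY55, like WRKY46 and WRKY70, belongs to group III. At 0 min 22 of 51 rose and 10 fell, and at 120 min 21 rose and 3 fell. The slope difference was higher in the libraries labelled rh6812 for 7 of 51 and lower for 2, and the 2 lower ones were WRKY8 (-1.49 ± 0.24 per hour) and WRKY45 (-0.65 ± 0.16 per hour). No list was tested against another, and the shares called among all genes were those given above.

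Of 28 genes around the WRKY factors, namely the kinases above them, their partners, salicylic acid regulators and target genes, 27 passed the filter in each set. In total RNA 16 rose and 4 fell (median 0.65), beside 32.2% and 32.4% of all genes. At 0 min 16 rose and 2 fell, beside 24.4% and 24.0%, and at 120 min 19 rose and 2 fell, beside 29.8% and 26.8%. SARD1, which switches on salicylic acid synthesis, rose by 2.16 ± 0.14 in total RNA, its relative CBP60G by 1.99 ± 0.17, the synthesis enzyme ICS1 by 1.39 ± 0.13 and the signalling protein PAD4 by 1.16 ± 0.12. Among kinases MPK11 rose by 3.70 ± 0.35 and MKK4 by 1.02 ± 0.14, while MPK6, which phosphorylates WRKY33, was lower (-0.85 ± 0.10). CYP71A13, a camalexin enzyme under WRKY33, rose by 6.29 ± 0.53. Its Col-0 level was loosely measured, the Col-0 ratio of polysome to total RNA being 0.39 ± 1.22 (95% interval -2.26 to 3.05). These changes are on the log2 scale with SE, from edgeR. After cordycepin the slope difference was called higher for 3 of 27 and lower for 2, beside 9.29% and 4.56% of all genes. Among them were PAD4 (0.55 ± 0.12 per hour) and CBP60G (-0.53 ± 0.14 per hour).

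The pattern over the 14 group means, from 2 sets that each share 1 selection of RNA, was compared by Pearson's r of log2(CPM + 0.5), each set centred on its own mean, with 10257 other genes of at least 3 in mean log2 CPM. WRKY46 was most like SARD1 (r = 0.991) and WRKY70 most like AT1G09932 (r = 0.996). WRKY40 was most like CAF1a (r = 0.977), WRKY33 like AT1G72940 (r = 0.963) and WRKY18 like PME1 (r = 0.974). The closest genes were AT2G22880 for WRKY60 (r = 0.987), AT5G54860 for WRKY53 (r = 0.979), LAZ5 for WRKY54 (r = 0.960), AT5G07820 for WRKY29 (r = 0.957) and LRB1 for WRKY22 (r = 0.940). Within the 10 genes, WRKY70 was closest to WRKY46 (r = 0.968) and to WRKY33 (r = 0.928), and WRKY40 to WRKY18 (r = 0.919). WRKY22 had the lowest such value, with WRKY29 as its closest (r = 0.468). These coefficients describe 14 points, each the mean of 3 libraries of its own, and carry no test.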

How the data were processed

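The authors deposited 1 table of read counts per locus, used here as raw counts for 27667 loci in 42 libraries. TopHat2 2.0.14, Bowtie2 2.2.5 and the TAIR10 genome are named in the submitters' processing notes. How reads were counted, and whether by strand, is not given in the sources used here. In the poly(A)+ set 212 loci had no value and were left out. The 2 library sets were fitted separately in R 4.3.3 with edgeR 4.0.16 (limma 3.58.1), using TMM scaling, filterByExpr (minimum count 10, minimum total 15) and all groups of a set in each quasi-likelihood fit. Tests were two-sided, with Benjamini-Hochberg adjustment over all genes tested and a threshold of 0.05. SE values were derived from the F statistic, and 95% intervals from the t distribution with the moderated degrees of freedom. CPM values were computed here from the counts and from library totals multiplied by their TMM factors. Precision statements cover counting error and the spread between 3 libraries only. Replicates of a group differed by more than sampling noise in every pair (chi-square per degree of freedom 2.90 to 27.5), so none was merged.

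The alternatives tried were DESeq2 1.42.0 and its size factors, library size alone, no filter on low counts, a replicate block, only the groups compared, fewer time points for slopes, and each library left out in turn. The edgeR procedure was run on simulated counts with the same spread for all genes and no effect shared by replicates. That run checks the procedure and not the spread of these libraries. Named among the other genes were those with the smallest p in total RNA or of the slope difference, up to a fixed number per list. Symbols (27455 loci matched), gene models and upstream windows came from RefSeq TAIR10.1 by locus identifier, and levels per kilobase used the longest transcript. The 10 genes and the gene lists were chosen with earlier results of these data known.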

Additional observations from a re-analysis of the deposited data

Results flagged for a closer look

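The slope of WRKY18, the subgroup IIa repressor of defence, differed between genotypes in the test of the difference itself. That made 1 of 10 genes called, beside 9.29% of all genes higher and 4.56% lower (13.9% in either direction). The straight line of log2 abundance over 0 to 120 min of cordycepin was less steep in the libraries labelled rh6812 by 0.83 per hour (edgeR adjusted p = 0.0376), and the mean at 120 min was 75.5% of that at 0 min in the libraries labelled rh6812 and 18.6% in Col-0. The Col-0 mean at 0 min was 127 ± 86.9 CPM (SD, n = 3). Col-0 stood at 31.7% of it at 30 min and 20.3% at 60 min, a course steeper at first than a straight line. At 0 min WRKY18 in the Col-0 replicates followed the order of the touch and wounding sum, whose part was not tested. The call was lost under 3 settings and without any 1 of 8 of the 30 libraries, as given above, and its cause was not tested.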

How the results depend on the processing

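Of 958 results for single WRKY genes under another setting, 913 kept their side of the threshold, 17 lost the call and 28 gained it. None that was called changed sign, and the 913 include 27 uncalled values that changed sign. Of 1560 with 1 library left out the numbers were 1503, 31, 26, 0 and 87, in the same order. The genotype counts in polysome RNA, in total RNA, at 0 min and at 120 min stayed within 1.5 times the reported count under each alternative run. Under library size alone, 3 genes were higher in polysome than total RNA of Col-0, 4 were lower in Col-0 at 30 min, 0 were higher from 30 to 120 min in the libraries labelled rh6812 and 1 was lower in Col-0, 4 fell by slope in Col-0, and 2 had a higher slope difference. With no filter on low counts, 0 genes were higher from 30 to 120 min in the libraries labelled rh6812 and 0 had a slope difference. DESeq2 called 4 lower in Col-0 at 30 min, 1 higher in Col-0 from 30 to 120 min and 1 rising by slope in Col-0, and its size factors in edgeR also gave 1 rising. With only the groups compared, 0 genes were lower in Col-0 at 30 min (4.97% of all genes called), 1 was higher and 1 lower in Col-0 from 30 to 120 min, and 3.37% of all genes were called over that interval in the libraries labelled rh6812. With times to 60 min only, 0 genes rose by slope in the libraries labelled rh6812 (5.29% of all genes), 0 had a slope difference (2.02%), and 30.4% of all genes had a called slope in Col-0. Without the 0 min libraries, 12.6% of all genes had a called slope in the libraries labelled rh6812, 1 WRKY gene rose and 1 fell in Col-0, and 0 had a slope difference.

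With 1 library left out, the count of genes higher in ribosome association ranged over 0 to 2, that lower in Col-0 at 30 min over 2 to 4, that of the difference at 30 min over 0 to 1, that higher from 30 to 120 min in Col-0 over 0 to 1 and in the libraries labelled rh6812 at 0, that rising by slope in Col-0 over 0 to 1, and the slope difference over 0 to 2 higher and 0 to 1 lower. The share of all genes called ranged over 1.82% to 2.18% at 30 min in the libraries labelled rh6812, 0.0829% to 0.474% for the difference at 30 min, and, from 30 to 120 min, 1.74% to 3.58% in the libraries labelled rh6812 and 1.7% to 3.33% for the difference. The cause of these changes was not tested, though fewer samples entered each such fit.

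The replicate numbers shared between groups were checked for pairing. Deviations from the group means correlated at r over 0.1 in 6 of 18 same-numbered pairs of libraries in the poly(A)+ set (r = -0.01 to 0.21) and in 87 of 135 in the rRNA-depleted set (r = -0.22 to 0.52). Among the 3 libraries of the other group, a library correlated best with its own number in 13 and 100 of these pairs. Between Col-0 times r was 0.19 to 0.52, and between times of the libraries labelled rh6812 it was -0.02 to 0.51. Between polysome and total RNA r was 0.03 to 0.17 in Col-0 and 0.09 to 0.16 in the libraries labelled rh6812. Each of these polysome libraries correlated best with the total RNA library of its own number. The main fits had no replicate block, so all their comparisons leave out any effect that libraries of the same number share. Polysome to total ratios, ribosome association, time changes and slopes are among them. With the replicate block 1 gene was higher in ribosome association (WRKY70, 1.06, adjusted p = 0.036), 4 were lower in Col-0 at 30 min (WRKY22 and WRKY29 gained, adjusted p = 0.018 and 0.044), 1 was higher from 30 to 120 min in Col-0 (WRKY22, adjusted p = 0.032) and 2 had a higher slope difference (WRKY22 gained, adjusted p = 0.041). It also called WRKY53 and WRKY54 higher in polysome than in total RNA labelled rh6812 (adjusted p = 0.028 and 0.019) and WRKY40 in Col-0 (adjusted p = 0.032). All-gene shares under the block were 0.424% for the difference at 30 min, 7.79% from 30 to 120 min in the libraries labelled rh6812 and 5.99% for its difference. Depth limits WRKY46, WRKY54 and WRKY70 in Col-0 poly(A)+ RNA and WRKY54 and WRKY60 after cordycepin, where libraries held few reads.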
